A study of Mus musculus with 24 samples.

Results

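S100a8 and S100a9 were selected by gene symbol and followed across every library. They make up 2 of the 38321 gene IDs counted. Their products, small calcium-binding proteins of the S100 family, pair to form calprotectin. Neutrophils carry calprotectin as the main protein of their cytosol, monocytes carry it too, and squamous epithelium such as the gingival surface makes both transcripts under inflammatory stress. Released calprotectin binds zinc and manganese that microbes need, and acts as an alarmin through Toll-like receptor 4, and in periodontal disease it is a familiar marker of inflammation in gingival fluid.

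The libraries were poly(A) RNA-seq libraries of wild-type C57BL/6J female mice, 11 weeks old at the start. OVXE2 mice had ovariectomy on day 0 and subcutaneous estradiol benzoate in corn oil, 1 µg per day from day 4. OVX mice had ovariectomy and corn oil vehicle, and Sham mice had sham surgery and the same vehicle. All 3 groups had silk tied around the second upper molar on either side on day 7 and were collected on day 14, so every mouse had ligature-induced periodontitis and no mouse without a ligature was analysed here. The dentoalveolar complex (DAC) is the tooth-bearing bone taken with its teeth after the soft tissue was cleaned off, and the gingiva is the gum around the maxillary molars. Each of the 6 combinations of tissue and group had 4 libraries, which the labels call biological replicates. They do not name the mouse behind a library, so p-values measure the spread between libraries, and no tie between a DAC and a gingiva library was assumed.

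S100a8 (ENSMUSG00000056054) lies on chromosome 3 at 90668978 to 90670035, plus strand, and S100a9 (ENSMUSG00000056071) at 90692632 to 90695721, minus strand, in GENCODE M21 coordinates of GRCm38. The genes are 22596 bases apart, and that annotation places 0 genes between them and 0 listed genes overlapping either. S100a8 has 1 coding transcript of 486 bases and S100a9 has 2, with a mature length of 519 bases. The genes face opposite strands, and the 250 bases before each RefSeq start (GRCm38.p6, read along the gene's own strand) are shown because S100a8 and S100a9 varied together across libraries. The regions are chr3:90668821-90669070 on the plus strand for S100a8 and chr3:90695722-90695971 on the minus strand for S100a9. The GENCODE start of S100a8, at 90668978, lies inside its region. The end of that stretch, TATAAA included, thus precedes the RefSeq start but falls within the GENCODE gene.
S100a8: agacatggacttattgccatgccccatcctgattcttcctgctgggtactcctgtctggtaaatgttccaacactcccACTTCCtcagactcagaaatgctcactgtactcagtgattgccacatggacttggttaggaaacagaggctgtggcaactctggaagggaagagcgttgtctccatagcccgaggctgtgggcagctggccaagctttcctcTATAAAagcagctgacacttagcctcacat
S100a9: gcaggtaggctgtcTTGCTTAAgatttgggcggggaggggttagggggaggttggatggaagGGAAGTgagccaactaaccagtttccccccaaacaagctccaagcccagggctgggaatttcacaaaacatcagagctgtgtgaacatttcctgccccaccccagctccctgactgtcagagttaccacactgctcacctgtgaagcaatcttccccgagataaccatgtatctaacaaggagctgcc

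Capitals mark matches to fixed letter strings, which were searched on both strands of a 300-base window reaching past the start. In S100a8 they are ACTTCC, the other-strand reading of the PU.1 string GGAAGT, beginning 172 bases before the start, and the TATA box string TATAAA, beginning 30 bases before it. In S100a9 they are TTGCTTAA, a match to the C/EBP string TTGCNNAA, 236 bases before the start, and GGAAGT, 188 bases before it. The S100a9 window also holds TATAAA, at base 1 after the RefSeq start, outside the printed stretch. PU.1 and C/EBP proteins are transcription factors of the myeloid lineage. None of these strings is rare: of 32544 RefSeq windows of the same length, 23.7% hold GGAAGT, 13.6% hold TATAAA and 10.8% hold TTGCNNAA. The AP-1 string TGANTCA (7.79% of windows), the estrogen response half-site AGGTCA (16.2%) and the full estrogen response element (0.0707%) were not found in either window.

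Reads counted on genes numbered 14771830 to 29248358 per DAC library and 18598422 to 26001342 per gingiva library. S100a8 received 12332 to 56652 of them and S100a9 16410 to 101395, so counting error was small beside the spread between libraries. Together the pair took 0.185 to 0.540% of gene counts in DAC libraries and 0.144 to 0.338% in gingiva libraries. Bone and tooth markers (10 of 10 found) summed to 6.34 to 9.43% of counts in DAC libraries and at most 0.6205% in gingiva. Oral squamous keratinocyte markers (5 of 12 found) summed to 0.0871 to 0.847% in DAC and 8.01 to 10.8% in gingiva, so each tissue carried the markers of its label and the DAC also held some epithelial RNA. DAC OVX library 1 stood apart by nasal gland markers at 14.1% of counts, DAC Sham library 2 by the lowest depth, and 4 DAC libraries (OVXE2 1 and 2, OVX 1 and Sham 2) by the highest brain neuron markers. Results that rest on these libraries are given with and without them.

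In the DAC, both alarmin genes were lower on average in OVXE2 than in OVX and in Sham, with 1 OVXE2 library lying among the other groups, and no difference of either gene between groups passed the test. Levels are in CPM, counts scaled to library size with TMM factors within the tissue. S100a8 had 641, 704, 1597 and 904 CPM in OVXE2 libraries 1 to 4, against 1152, 1597, 1554 and 1884 CPM in OVX libraries and 1501, 1897, 1497 and 1632 CPM in Sham libraries. OVXE2 libraries 1, 2 and 4 lay below all OVX and Sham libraries, and OVXE2 library 3 lay inside the range of both. S100a9 had 1159.8, 1117, 3123 and 1876 CPM in OVXE2, against 2037, 3280.1, 2611 and 3371 CPM in OVX and 2643, 3196, 2905 and 3135 CPM in Sham. The same 3 OVXE2 libraries were below every OVX and Sham library for S100a9, and library 3 again was not. The share of all genes with this pattern was not computed. The coefficient of variation for S100a8 was 45.6% in OVXE2, 19.5% in OVX and 11.5% in Sham, and for S100a9 it was 51.5% in OVXE2, 22.1% in OVX and 8.47% in Sham.

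**Figure D1:**
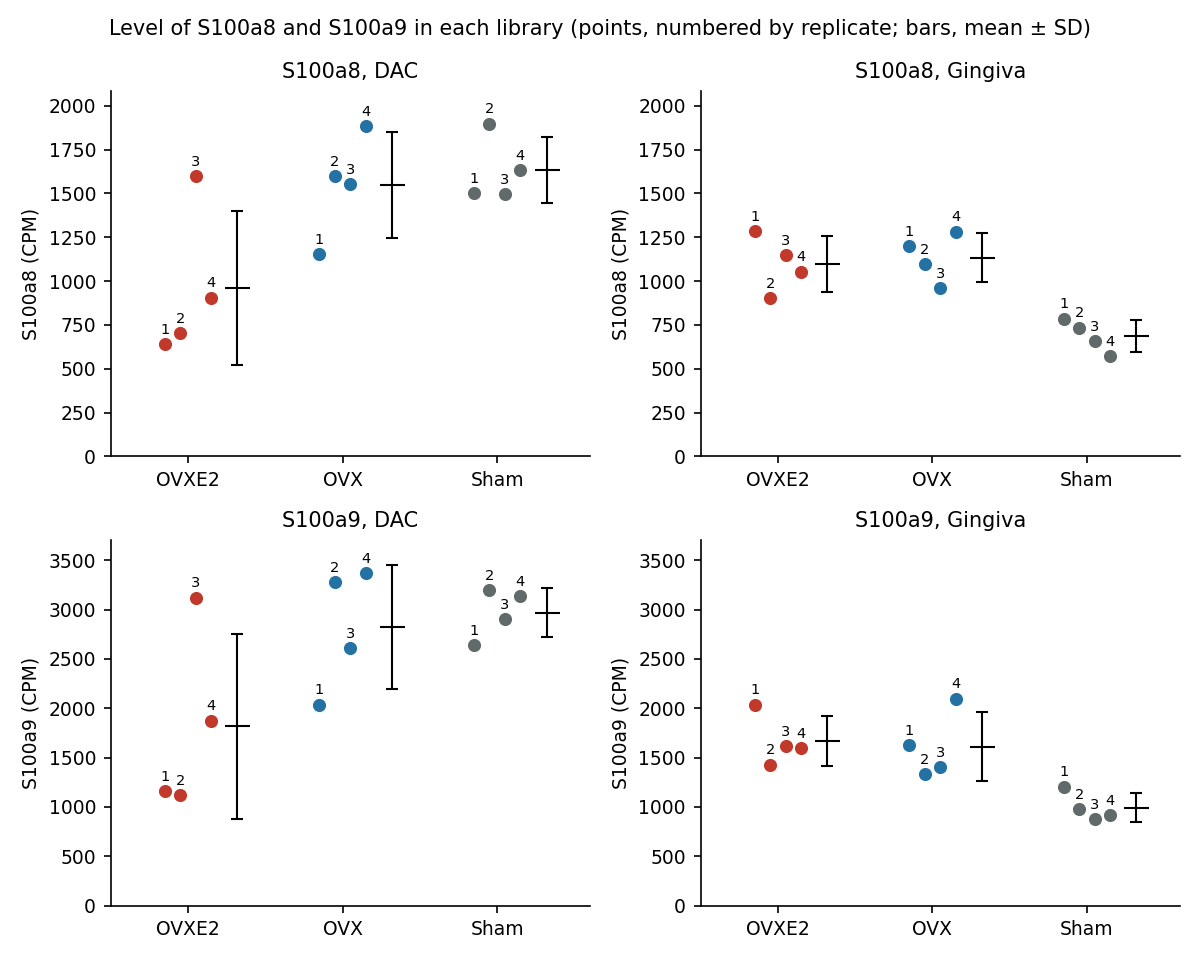
CPM of S100a8 and S100a9 in each library (points) with the mean and SD (bars), scaled within each tissue, for OVXE2, OVX and Sham. In the DAC, 3 of 4 OVXE2 libraries lie below all others, and in the gingiva all OVXE2 and OVX libraries lie above all Sham libraries.

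S100a8 averaged 962 ± 438 CPM in OVXE2 and 1547 ± 301 CPM in OVX (SD, n = 4 each), a log2 difference of −0.69 ± 0.26 (SE; 95% interval −1.26 to −0.11; unadjusted p = 0.0230, adjusted p = 0.329, edgeR's quasi-likelihood test with Benjamini-Hochberg adjustment over all genes tested). For S100a9 the means were 1819 ± 937 CPM in OVXE2 and 2825 ± 625 CPM in OVX, and the log2 difference was −0.64 ± 0.30 (95% interval −1.29 to 0.02; edgeR adjusted p = 0.523). So 0 of 2 alarmin genes passed as lower, beside 1.45% of the 13617 genes tested. Against Sham, where S100a8 averaged 1632 ± 188 CPM, the OVXE2 difference of S100a8 was −0.76 ± 0.26 on the log2 scale (95% interval −1.34 to −0.19; edgeR adjusted p = 0.335). S100a9 averaged 2969 ± 251 CPM in Sham, and its OVXE2 difference from Sham was −0.71 ± 0.30 (95% interval −1.36 to −0.06; edgeR adjusted p = 0.506), where 0.661% of genes passed as lower.

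These calls turned on a single library. Without OVXE2 library 3, S100a8 fell by 1.04 on the log2 scale in OVXE2 against OVX (edgeR adjusted p = 0.0138) and by 1.12 against Sham (adjusted p = 0.0169). Without it, S100a9 fell by 1.03 against OVX (edgeR adjusted p = 0.0442) and by 1.10 against Sham (adjusted p = 0.0456). With that library left out, 1.25% of 13869 genes tested passed as lower against OVX and 0.714% against Sham. Nothing in the labels sets library 3 apart, and the choice to name it was made after its values were seen.

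A different set of libraries moved the values the other way. Brain neuron markers (9 of 10 found, none at 0) summed to 0.00396 to 0.0164% of counts in DAC OVXE2, 0.00489 to 0.0147% in OVX and 0.00367 to 0.0474% in Sham. OVXE2 libraries 1 and 2, with the lowest S100a8, had 0.0146 and 0.0164%. OVX library 1, at 0.0147%, had the lowest S100a8 of its group. Sham library 2, at 0.0474%, had the highest S100a8 of all DAC libraries (1897 CPM). Leaving out the 4 libraries highest in these markers removes OVXE2 libraries 1 and 2, so that OVXE2 keeps only libraries 3 and 4. The OVXE2 against OVX difference was then −0.42 for S100a8 (edgeR adjusted p = 0.815) and −0.30 for S100a9 (adjusted p = 0.924). Against Sham it was then −0.30 for S100a8 and −0.21 for S100a9 on the log2 scale. Without the library rich in nasal gland markers and the shallowest one, S100a8 differed by −0.80 (edgeR adjusted p = 0.311) and S100a9 by −0.76 (adjusted p = 0.481) between OVXE2 and OVX.

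Epithelial markers also varied within the OVXE2 group. OVXE2 library 1, lowest in S100a8, was highest in stress epithelium markers (0.345% of counts) and squamous markers (0.847%). OVXE2 library 3, highest in S100a8, was lowest of its group in both, at 0.0808% and 0.116%. OVXE2 libraries 2 and 4, with S100a8 at 704 and 904 CPM, had 0.146 and 0.179% of stress epithelium markers. Their squamous markers were at 0.207 and 0.203%, so stress epithelium markers did not follow S100a8 in order over the group. Stress epithelium markers (9 of 13 found, none at 0) ranged over 0.0808 to 0.345% in OVXE2, 0.0786 to 0.152% in OVX and 0.0949 to 0.153% in Sham. The part of neuronal or epithelial RNA in the alarmin values was not tested.

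Ovariectomy alone left both alarmin genes within the spread between DAC libraries. The OVX against Sham log2 difference was −0.08 ± 0.26 for S100a8 (95% interval −0.65 to 0.49; edgeR adjusted p = 0.942). It was −0.07 ± 0.30 for S100a9 (95% interval −0.72 to 0.58; edgeR adjusted p = 0.954). The test passed 0 of 13617 genes in this comparison, with 437 genes at an unadjusted p under 0.05, 0 genes passed by limma-voom and 10 by DESeq2.

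Neutrophil genes were measured in the same DAC libraries, grouped by stage of maturation. Primary granule genes are made by early precursors in the marrow and secondary granule genes by later ones, and genes of both lists fell in OVXE2 against OVX, while 0 mature neutrophil genes passed. The difference between the lists was not tested. In bulk tissue, fewer cells of a type and less RNA per cell cannot be told apart. Of 5 primary granule genes tested, 5 fell in OVXE2 against OVX, where 1.45% of all genes fell, with a median log2 difference of −1.89 beside 0.02 over all genes. Mpo, the myeloperoxidase of the primary granule, averaged 102.6 ± 24.7 CPM in OVXE2 and 379.8 ± 57.4 CPM in OVX, and fell by 1.89 ± 0.26 (log2, SE; edgeR adjusted p = 0.0031). Fcnb, a granule lectin, fell by 2.38 ± 0.30 (edgeR adjusted p = 0.0017), and the serine proteases Ctsg and Elane fell by 1.85 ± 0.26 and 1.70 ± 0.25 (adjusted p = 0.0037 and 0.0043).

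Of 8 secondary and tertiary granule genes tested, 8 were lower and 3 passed the test in OVXE2 against OVX, where 1.45% of all genes fell. Their median log2 difference was −0.90. The cathelicidin gene Camp averaged 139 ± 65.0 CPM in OVXE2 and 381 ± 100.0 CPM in OVX and fell by 1.45 ± 0.29 (edgeR adjusted p = 0.0264). Ngp, a neutrophil granule protein, fell by 1.22 ± 0.25 (edgeR adjusted p = 0.0278), and lactoferrin, Ltf, by 1.20 ± 0.26 (adjusted p = 0.0357). These 3 calls were fragile: 0 of 8 passed without OVX library 2 or 4, or OVXE2 library 1, 2 or 4, left out one at a time, and without the 4 neuron-rich libraries. The summed secondary granule markers took 0.140 to 0.197% of counts in OVXE2, 0.289 to 0.438% in OVX and 0.219 to 0.476% in Sham. OVXE2 library 3 had the 0.197%, close to the 0.196% of OVXE2 library 4 and below every OVX and Sham library. Its S100a8 and S100a9 took 0.443% of counts, inside the range of the OVX and Sham libraries.

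Of 10 mature neutrophil genes tested, 9 were lower, 1 was higher and 0 passed the test in OVXE2 against OVX, with a median of −0.32. Csf3r, the receptor for granulocyte colony-stimulating factor, differed by −0.32 ± 0.21 (log2, SE; edgeR adjusted p = 0.781), with 119.8 ± 40.0 CPM in OVXE2 and 149 ± 21.6 CPM in OVX. Mmp9, the gelatinase that mature neutrophils and osteoclasts both make, was the 1 higher gene, at 3019 ± 260.1 CPM in OVXE2 and 2282 ± 352 CPM in OVX (edgeR adjusted p = 0.150). The alarmin differences of −0.69 and −0.64 lay between the medians of the mature and the secondary granule genes. Summed mature neutrophil markers (10 of 15 found, none at 0) took 0.311 to 0.380% of counts in OVXE2, 0.219 to 0.308% in OVX and 0.283 to 0.368% in Sham. Mmp9 made up most of this sum. The sum was thus higher in OVXE2 than in OVX although 9 of the 10 genes were lower, and it is no measure of mature neutrophil content. The part of neutrophil number or stage in the alarmin values was not tested.

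**Figure D2:**
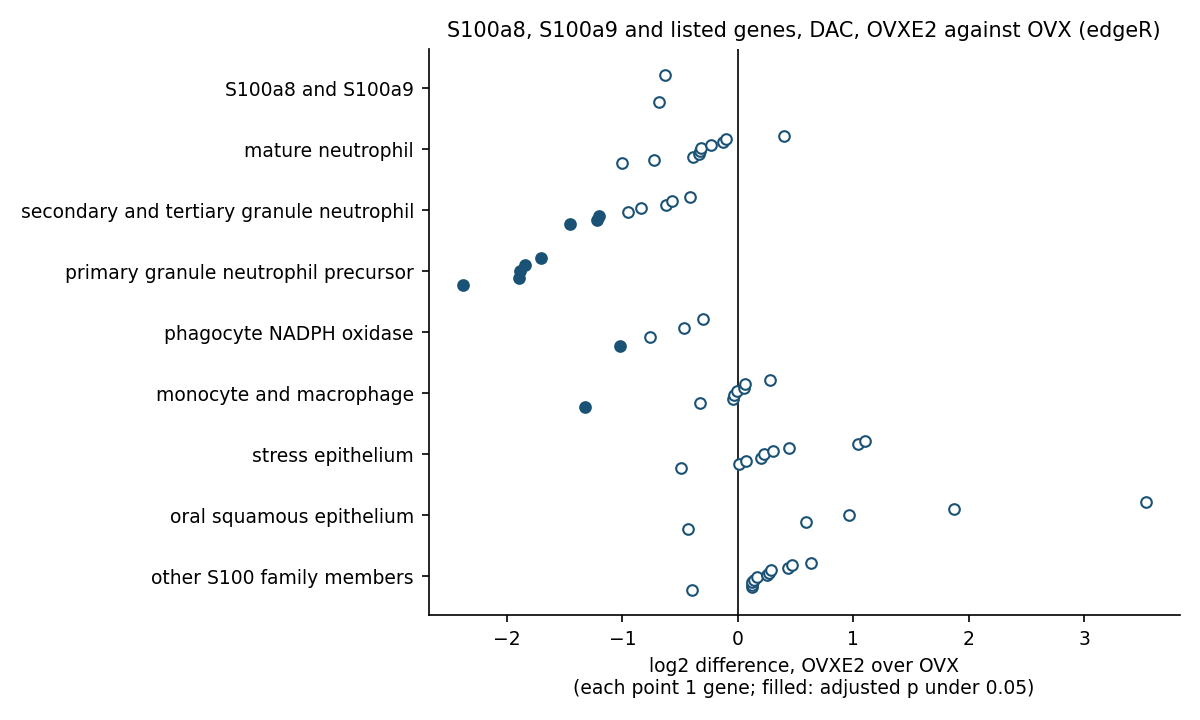
Log2 difference of OVXE2 over OVX in the DAC for S100a8, S100a9 and the genes of 8 lists, 1 point per gene, filled where the edgeR adjusted p was under 0.05. All 5 primary granule genes are filled and far below 0, and S100a8 and S100a9 are open, at −0.69 and −0.64.

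Against Sham the medians of these lists in the DAC had the same signs. In OVXE2, 5 of 5 primary granule genes fell, where 0.661% of all genes fell, with a median log2 difference of −1.76 beside −0.0027 over all genes. Mpo fell by 1.66 ± 0.26 (log2, SE; edgeR adjusted p = 0.0120) and Prtn3, proteinase 3, by 1.76 ± 0.28 (adjusted p = 0.0120). Of the secondary granule genes, 8 of 8 were lower and 0 passed the test, with a median of −0.72, and of the mature neutrophil genes 9 of 10 were lower and 0 passed, with a median of −0.42. Without the 4 neuron-rich libraries, 1 of 5 primary granule genes passed against OVX and 0 of 5 against Sham, with medians of −1.88 and −1.52. The mature neutrophil median was then 0.07 against OVX and −0.05 against Sham. Within the 8 DAC libraries in which more of the gene reads (5.69 to 8.81%) fell on the uncounted strand, 1 of 5 primary and 0 of 8 secondary granule genes passed against OVX, with medians of −1.87 and −0.92, and 0 of either list passed against Sham. The OVXE2 libraries are shared by both comparisons, so these counts are not independent.

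Further marker groups were measured in the DAC beside the alarmins. Of 8 B lymphopoiesis genes tested, which mark B-cell precursors in marrow, 7 fell in OVXE2 against OVX, where 1.45% of all genes fell, with a median of −2.95 beside 0.02 over all genes, and 6 fell without the 4 neuron-rich libraries. Their summed level was 0.0048 to 0.0074% of counts in OVXE2, 0.0199 to 0.0276% in OVX and 0.0106 to 0.0158% in Sham. Of 8 monocyte and macrophage genes, 1 fell against OVX, the chemokine receptor gene Ccr2 (−1.33 ± 0.19; edgeR adjusted p = 0.0037), and 0 rose, with a median of −0.02. The Ccr2 call was lost without the 4 neuron-rich libraries and within the 8 libraries with more uncounted-strand reads. Their part in the alarmin values was not tested.

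In the gingiva, both alarmin genes were higher in OVX than in Sham and higher in OVXE2 than in Sham, with no overlap between libraries, and OVXE2 and OVX overlapped. S100a8 had 1286, 903, 1149 and 1054 CPM in OVXE2, 1199, 1096, 958 and 1282 CPM in OVX, and 786, 733, 657 and 570.0 CPM in Sham. All 8 libraries from ovariectomized mice were above all 4 Sham libraries. S100a9 had 2036, 1429, 1614 and 1598 CPM in OVXE2, 1624, 1331, 1401 and 2096 CPM in OVX, and 1207, 977, 875 and 915 CPM in Sham. The separation from Sham held for S100a9 too, and within the ovariectomized mice the OVXE2 and OVX values intermixed.

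For OVX against Sham, S100a8 averaged 1134 ± 139.8 CPM in OVX and 687 ± 94.0 CPM in Sham (SD, n = 4 each), 1.65-fold higher in OVX, with a log2 difference of 0.72 ± 0.13 (SE; 95% interval 0.44 to 1.00). Its unadjusted p of 9.5e-05 was the smallest of the 12680 genes tested (rank 1), and its edgeR adjusted p was 0.376. S100a9 averaged 1613 ± 345 CPM in OVX and 993 ± 148 CPM in Sham, a log2 difference of 0.70 ± 0.16 (95% interval 0.36 to 1.04), with rank 12 by p and an edgeR adjusted p of 0.376. Both genes were among the 2.22% of genes whose OVX libraries all lay above all Sham libraries. The edgeR test passed 0 genes here, with 1530 genes at an unadjusted p under 0.05. Limma-voom also passed 0 genes, while DESeq2 passed 44, S100a8 (adjusted p = 0.000128) and S100a9 (adjusted p = 0.0044) among them; 0.0552% of genes passed as higher with DESeq2. Across the libraries left out one at a time, the S100a8 difference ran from 0.64 to 0.80 and the S100a9 difference from 0.55 to 0.81 on the log2 scale.

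For OVXE2 against Sham, S100a8 averaged 1098 ± 161 CPM in OVXE2 against the same Sham libraries, a log2 difference of 0.68 ± 0.13 (95% interval 0.40 to 0.96; rank 3 by p; edgeR adjusted p = 0.518). S100a9 averaged 1669 ± 258 CPM in OVXE2, a log2 difference of 0.75 ± 0.16 (95% interval 0.41 to 1.09; rank 9; edgeR adjusted p = 0.583). Both were among the 2.26% of genes whose OVXE2 libraries all lay above all Sham libraries. The edgeR test and limma-voom passed 0 genes in this comparison, with 939 genes at an unadjusted edgeR p under 0.05, and DESeq2 passed 8 genes, including S100a8 (adjusted p = 0.0032) and S100a9 (adjusted p = 0.0074), with 0.0473% of genes passing as higher. The 2 comparisons share the 4 Sham libraries.

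For OVXE2 against OVX in the gingiva, the S100a8 log2 difference was −0.05 ± 0.13 (95% interval −0.32 to 0.23; edgeR adjusted p = 0.902). The S100a9 log2 difference was 0.05 ± 0.16 (95% interval −0.29 to 0.39; edgeR adjusted p = 0.917). The edgeR test passed 0 genes, with 1766 genes at an unadjusted p under 0.05, limma-voom passed 0 and DESeq2 passed 91, with neither alarmin gene among them.

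Neutrophil and epithelial markers in the gingiva were measured beside these values. Of 10 mature neutrophil genes, 10 were higher in OVX than in Sham and 0 passed the test, with a median log2 difference of 0.27 beside 0.0074 over all genes. Csf3r differed by 0.27 ± 0.39 (edgeR adjusted p = 0.796) and Mmp9 by 0.01 ± 0.25 (adjusted p = 0.996). Summed mature neutrophil markers took 0.0181 to 0.0442% of counts in OVXE2, 0.0181 to 0.0353% in OVX and 0.0144 to 0.0294% in Sham, and these ranges overlapped. A sum follows its most abundant genes, so here too it is no measure of mature neutrophil content. Of 8 secondary granule genes, 2 were higher and 6 lower in OVX than in Sham (median −0.12), and 8 of 8 were higher in OVXE2 than in OVX (median 0.60), with 0 passing in either comparison. Primary granule markers (5 of 6 found) were at most 0.000144% of counts in any gingiva library and no primary granule gene was tested there.

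Of 9 stress epithelium genes in the gingiva, 7 were higher and 2 lower in OVX than in Sham, 0 passed, and the median was 0.14. Krt16 and Krt17, keratins of wounded or hyperproliferative epithelium, differed by 0.06 ± 0.12 and 0.14 ± 0.11 (log2, SE; edgeR adjusted p = 0.850 and 0.592). Sprr2d and Sprr2h, of the same list, were higher on average in OVX than in Sham, with overlap between libraries. Summed stress epithelium markers took 2.35 to 2.76% of counts in OVXE2, 2.49 to 2.63% in OVX and 2.15 to 2.78% in Sham. S100a8 was also set against the mean of the stress epithelium genes within each library. It stood 1.17 ± 0.12 higher on the log2 scale in OVXE2, 1.15 ± 0.08 in OVX and 0.63 ± 0.12 in Sham (SD, n = 4 each). The lowest OVXE2 and OVX libraries (1.02 and 1.06) were above the highest Sham library (0.79), and the share of all genes separated in this way was not computed. The CPM of S100a8 alone separated the same groups. By CPM, 2.22% of genes had all OVX libraries above all Sham libraries, and 2.26% had all OVXE2 libraries above them. The stress epithelium mean includes Sprr2d and Sprr2h, which are named below among the genes most like the alarmins. S100a9 stood 1.77 ± 0.13 higher than that mean in OVXE2, 1.64 ± 0.17 in OVX and 1.17 ± 0.05 in Sham. Against the mean of the mature neutrophil genes the groups overlapped, with S100a8 at 6.25 ± 0.80 in OVXE2, 6.55 ± 0.53 in OVX and 6.12 ± 0.47 in Sham. Other marker lists also differed between the gingival groups, with 0 genes passing in any of them.

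Of 8 monocyte and macrophage genes in the gingiva, 7 were higher in OVX than in Sham (median 0.35) and 6 were higher in OVXE2 than in Sham (median 0.09). Their summed level was 0.0479 to 0.0550% of counts in OVXE2, 0.0513 to 0.0538% in OVX and 0.0399 to 0.0539% in Sham. Of 6 erythroid genes, which mark red cell precursors and blood, 6 were higher in OVX than in Sham (median 0.40) and 6 in OVXE2 than in Sham (median 0.76), with sums of 0.0144 to 0.0211% in OVXE2, 0.00947 to 0.0202% in OVX and 0.0083 to 0.01405% in Sham. Of 5 B lymphopoiesis genes, 5 were higher in OVX than in Sham (median 1.96) and 5 in OVXE2 than in Sham (median 0.65). Their sums were very low, at 0.0010 to 0.0020% in OVXE2, 0.00105 to 0.0044% in OVX and 0.00079 to 0.00143% in Sham. The 0.0044% was that of OVX library 3. Over the other settings these medians ran from 0.73 to 2.41 for OVX and from −0.58 to 0.91 for OVXE2. Of 10 nasal gland genes, 10 were lower in OVX than in Sham (median −0.87) and 7 in OVXE2 than in Sham (median −0.43). The part of epithelial, neutrophil, monocyte, blood, B-cell or glandular RNA in the gingival alarmin values was not tested.

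Between tissues, both alarmin genes rose in DAC against gingiva in Sham mice, S100a9 also did in OVX mice, and neither passed the test in OVXE2 mice. In Sham, S100a8 averaged 1533 ± 186 CPM in DAC and 718 ± 96.5 CPM in gingiva on a scale common to all 24 libraries, and rose by 1.10 ± 0.21 in DAC (log2, SE; 95% interval 0.66 to 1.53; edgeR adjusted p = 7.2e-05). S100a9 averaged 2789 ± 242 CPM in DAC and 1038 ± 153 CPM in gingiva in Sham, and rose by 1.43 ± 0.25 in DAC (95% interval 0.92 to 1.94; edgeR adjusted p = 2.3e-05). Such a difference was common between these tissues, since 39.7% of 14209 genes passed as higher in DAC and 36.6% had all DAC Sham libraries above all gingiva Sham libraries.

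In OVX, the DAC minus gingiva difference of S100a8 was 0.32 ± 0.21 (95% interval −0.11 to 0.75; edgeR adjusted p = 0.165), where 38.1% of genes passed as higher. S100a9 rose by 0.68 ± 0.24 in DAC in OVX (95% interval 0.18 to 1.19; edgeR adjusted p = 0.0153), and without DAC OVX library 4 the adjusted p was 0.0505. In OVXE2, the difference of S100a8 was −0.33 ± 0.21 (95% interval −0.76 to 0.10; edgeR adjusted p = 0.158) and that of S100a9 was −0.01 ± 0.24 (95% interval −0.51 to 0.49; adjusted p = 0.960), where 34.1% of genes passed as lower. Without DAC OVXE2 library 3, S100a8 fell by 0.64 in DAC against gingiva in OVXE2 (edgeR adjusted p = 0.0016), as did 33.3% of genes.

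By mean level over the 6 combinations, S100a8 ran in the order DAC Sham, DAC OVX, gingiva OVX, gingiva OVXE2, DAC OVXE2 and gingiva Sham, and every neighbouring pair overlapped between libraries. Its means between those ends were 1483 ± 286 CPM in DAC OVX, 1186 ± 146 CPM in gingiva OVX, 1154 ± 173 CPM in gingiva OVXE2 and 919 ± 382 CPM in DAC OVXE2. S100a9 ran in the order DAC Sham, DAC OVX at 2711 ± 611 CPM, gingiva OVXE2 at 1753 ± 276 CPM, DAC OVXE2 at 1736 ± 830.3 CPM, gingiva OVX at 1688 ± 360.3 CPM and gingiva Sham. For S100a9 the neighbours gingiva OVX and gingiva Sham did not overlap, and the other neighbouring pairs did. Among all genes of a library, S100a9 ranked 13 to 127 by count and S100a8 ranked 30 to 213.

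The change with treatment was then compared between tissues by the difference of the effects. For OVXE2 against Sham, the DAC effect minus the gingiva effect of S100a8 was −1.42 ± 0.29 on the log2 scale (95% interval −2.03 to −0.82; unadjusted p = 8.3e-05; rank 17 of 14209; edgeR adjusted p = 0.0695). For S100a9 it was −1.44 ± 0.34 (95% interval −2.15 to −0.73; rank 38; edgeR adjusted p = 0.149). Neither passed the test, where 0.0282% of genes passed as lower. DESeq2 passed 0.289% of genes as lower and gave an adjusted p of 0.0012 for S100a8 and 0.0105 for S100a9. Without DAC OVXE2 library 3, the edgeR values were −1.73 (adjusted p = 0.0020) for S100a8 and −1.78 (adjusted p = 0.0066) for S100a9, with 0.0969% of genes passing as lower.

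For OVX against Sham, the DAC effect minus the gingiva effect was −0.77 ± 0.29 for S100a8 and −0.74 ± 0.34 for S100a9 (edgeR adjusted p = 0.575 for both), with 0 genes passing by edgeR, limma-voom or DESeq2 and 1212 genes at an unadjusted edgeR p under 0.05. For OVXE2 against OVX, it was −0.65 ± 0.29 for S100a8 (edgeR adjusted p = 0.542) and −0.70 ± 0.34 for S100a9 (adjusted p = 0.569), where 0.12% of genes passed as lower. The opposite signs seen in the 2 tissues for OVXE2 against Sham thus did not pass the test of their difference over all genes.

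**Figure D3:**
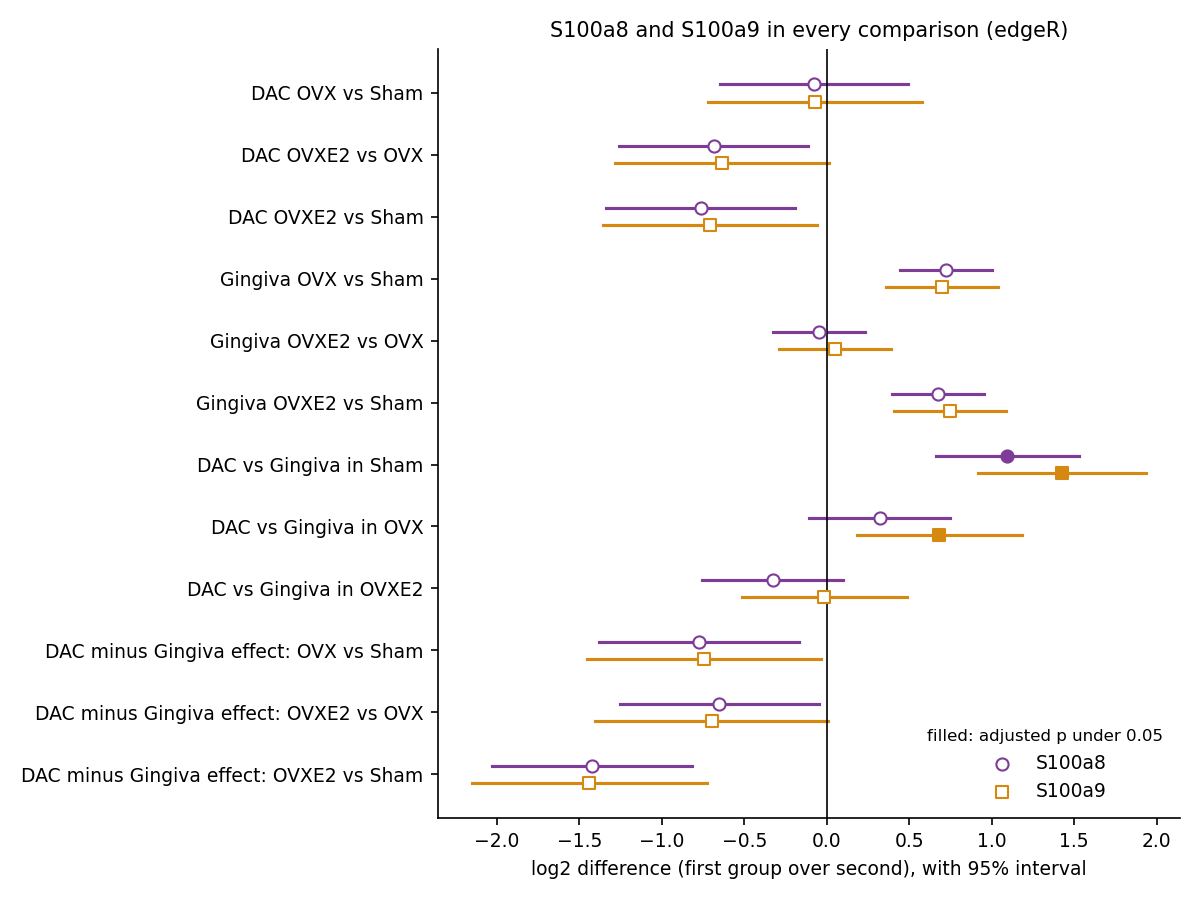
Log2 differences of S100a8 and S100a9 with 95% intervals (edgeR) for OVXE2 over OVX, OVXE2 over Sham and OVX over Sham in DAC and gingiva. DAC over gingiva in each group and the DAC minus gingiva effects are also drawn. Filled points (adjusted p under 0.05) are both genes in Sham and S100a9 in OVX, for DAC over gingiva. DAC intervals for OVX over Sham span 0. Gingiva intervals for both comparisons with Sham lie above 0, although their adjusted p-values are not under 0.05.

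The markers of the cells that could carry the alarmins differed far more between tissues than the alarmins did. In Sham, 10 of 10 mature neutrophil genes rose in DAC against gingiva with a median log2 difference of 2.37, beside 0.07 over all genes, 39.7% of which rose, and 8 of 8 secondary granule genes rose with a median of 5.80. Mmp9 rose by 4.11 ± 0.23 (edgeR adjusted p = 1.6e-12), Camp by 9.68 ± 0.44 and Mpo by 9.80 ± 0.41. Of 9 stress epithelium genes, 9 fell, beside 35.4% of all genes, with a median of −3.76, among them Krt16 at −5.72 ± 0.56 and Slpi, a secreted protease inhibitor, at −3.76 ± 0.25. The alarmin differences of 1.10 and 1.43 lay between these groups. In OVX the same lists had medians of 1.84, 6.68 and −3.70, and in OVXE2 1.23, 4.69 and −3.51. Scaling by library size alone moved the median of all genes to 0.25 in Sham, and S100a8 was then at 1.29.

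The balance between the alarmin genes was taken within each library, where it does not depend on scaling. In the DAC, S100a8 counts per S100a9 count averaged 0.544 ± 0.0642 in OVXE2, 0.552 ± 0.0460 in OVX and 0.549 ± 0.0378 in Sham (SD, n = 4 each). OVXE2 library 3, with high levels of both genes, and OVXE2 libraries 1 and 2, with low levels, all fell within 0.482 to 0.630, the range of the 12 DAC libraries. In the gingiva the ratio averaged 0.659 ± 0.0378 in OVXE2, 0.714 ± 0.0893 in OVX and 0.694 ± 0.0666 in Sham, within 0.612 to 0.823. Corrected for transcript length, S100a9 was still the more abundant transcript, with a mean S100a8 to S100a9 ratio of 0.586 in DAC and 0.736 in gingiva.

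**Figure D4:**
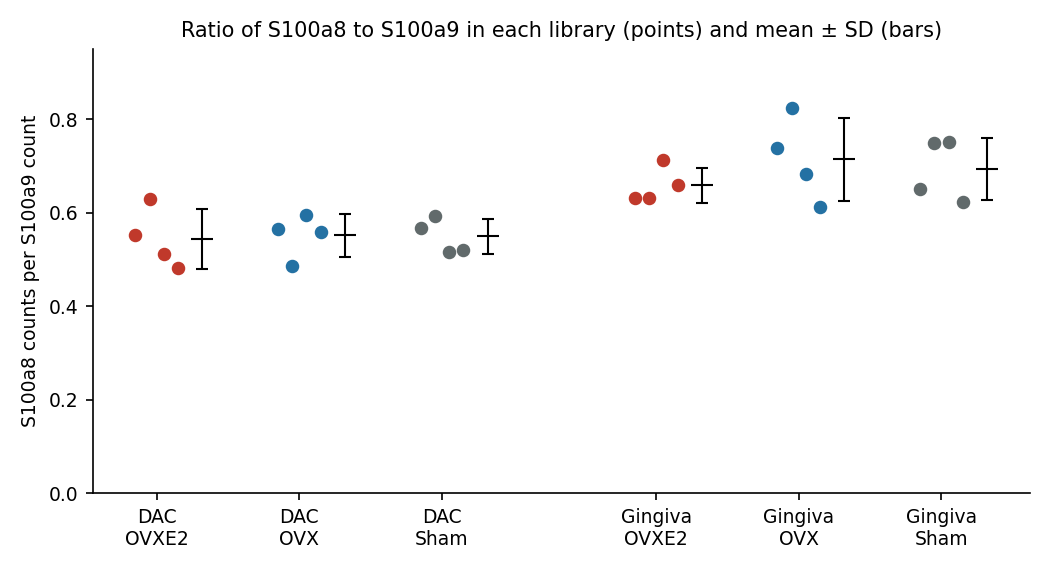
S100a8 counts per S100a9 count in each library (points) with mean and SD (bars), in DAC and gingiva for OVXE2, OVX and Sham. DAC libraries span 0.482 to 0.630 and gingiva libraries 0.612 to 0.823.

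The ratio was lower in DAC than in gingiva in each group. The log2 ratio differed by −0.28 in OVXE2, −0.37 in OVX and −0.33 in Sham, each with a 2-sided exact permutation p of 0.0286, the smallest that 4 against 4 libraries can give, and 0.0857 after Benjamini-Hochberg adjustment over 9 comparisons. Within a tissue, the group differences in log2 ratio had exact permutation p-values of 0.286 to 0.971. Libraries fell into 2 sets by the share of gene reads on the other strand, 8 libraries per tissue at 5.69 to 9.03% and 4 per tissue at 3.38 to 4.76%. In the higher set the mean ratio was 0.566 in DAC and 0.705 in gingiva, and in the lower set it was 0.514 in DAC and 0.657 in gingiva, so the tissue order was the same in both. For S100a8 and S100a9 themselves, the other strand held 0.143 to 1.08% and 0.519 to 2.33% of reads.

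S100a8 and S100a9 varied together across libraries. Their log2 CPM values had a Pearson r of 0.977 and a Spearman rho of 0.909 over the 12 DAC libraries (permutation p = 1e-05, the smallest that 100000 resamples can give, and 0.00014). Without the 2 libraries farthest from the median S100a8, OVXE2 1 and 2, r was 0.938. Over the 12 gingiva libraries r was 0.946 and rho 0.937 (permutation p = 1e-05 and 7e-05), and 0.914 without Sham libraries 3 and 4. Adjusted over the 2 tissues, the p-values for r were 1e-05 in both. Because gingiva Sham libraries stood apart from the others, the deviations from group means were also correlated, with r = 0.815 in gingiva and 0.961 in DAC. Both genes share a library's depth and scaling in these correlations.

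In the DAC the genes whose profile followed the alarmins most closely were Lyz2, Mcemp1, Alox5ap, Wfdc21, Pilrb2 and Coro1a. Likeness was measured over the 12 libraries as the SD of the log2 ratio of a gene to the mean of S100a8 and S100a9, smallest first, among 8350 genes with a mean of at least 3 log2 CPM. Lyz2, the lysozyme of myeloid cells, had an SD of 0.169 (r = 0.952) and Coro1a, an actin-binding protein of leukocytes, 0.208 (r = 0.925), beside a median of 0.575 over all candidates and 0.121 between S100a8 and S100a9. Lyz2 averaged 1088 ± 329 CPM in OVXE2, 1877 ± 477 CPM in OVX and 1897 ± 94.0 CPM in Sham. Wfdc21, which had the highest correlation of the 6 genes (r = 0.980), differed by −0.97 on the log2 scale between OVXE2 and OVX. Coro1a had 145 ± 42.2 CPM in OVXE2 and 276 ± 42.5 CPM in OVX. The 6 genes were chosen for following the alarmins over these libraries, so their differences between groups are given as a description.

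In the gingiva the list was different: Sprr2g, Sprr2h, Sprr2d, Urah, Sprr2i and Tmem266, out of 7804 candidates. The Sprr2 genes encode small proline-rich proteins of the cornified envelope of squamous epithelium, and 4 of the 6 genes belong to that family. They lie on chromosome 3, as the alarmin genes do, and are near-identical copies, so their separate counts are uncertain. Sprr2d and Sprr2h are also members of the stress epithelium list used above. Sprr2g had an SD of 0.209 (r = 0.892) and Tmem266 0.263 (r = 0.774), beside a median of 0.421 over candidates and 0.135 between S100a8 and S100a9. Sprr2d averaged 591 ± 78.0 CPM in OVXE2, 537 ± 58.5 CPM in OVX and 399 ± 116 CPM in Sham. Sprr2g averaged 36.9 ± 8.71 CPM in OVXE2, 36.5 ± 8.01 CPM in OVX and 22.05 ± 4.64 CPM in Sham, a log2 difference of 0.72 between OVX and Sham, again in genes chosen for their likeness. The lists of the 2 tissues share 0 genes. In Sham, Lyz2 rose by 3.45 and Sprr2g fell by 1.80 in DAC against gingiva on the log2 scale.

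**Figure D5:**
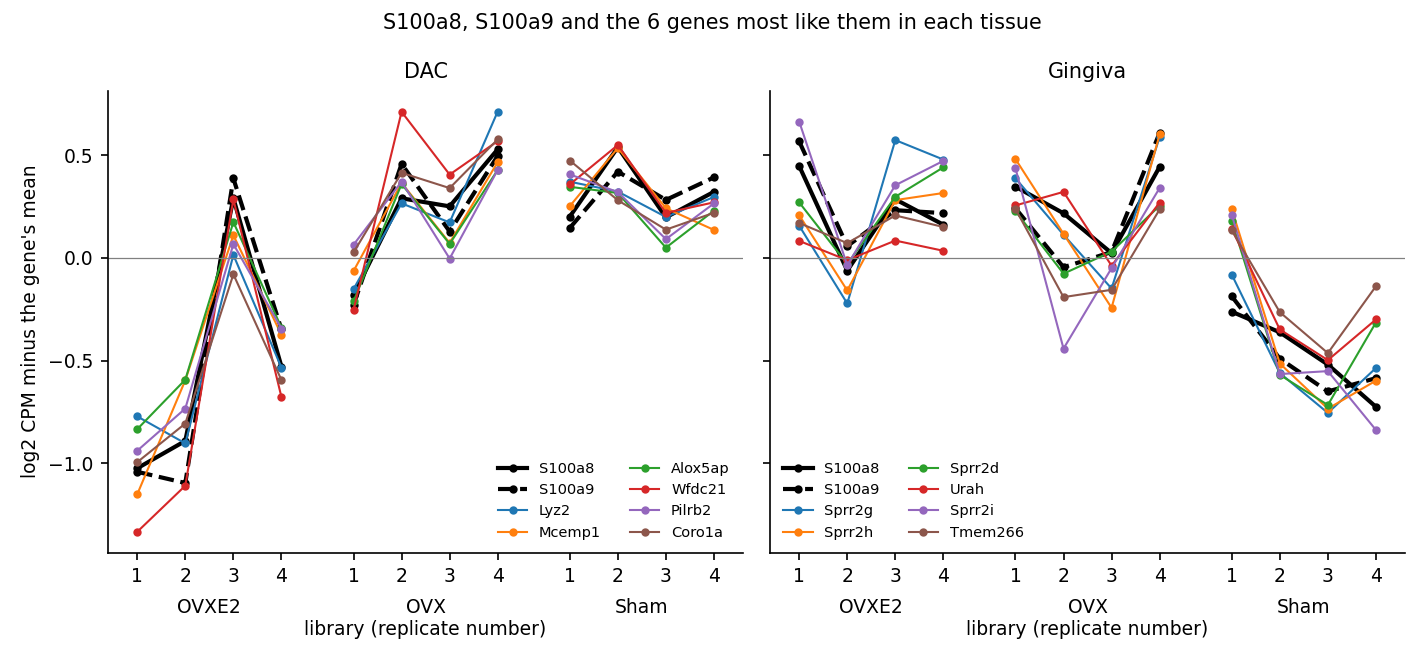
Log2 CPM of S100a8 and S100a9 and of the genes with the most similar profile, centred on each gene's mean, across the 12 libraries of DAC and of gingiva in the order OVXE2, OVX and Sham. In DAC all profiles lie below the gene's mean in OVXE2 libraries 1, 2 and 4, and library 3 lies above it for every gene but Coro1a. In gingiva all profiles lie below the mean in Sham libraries 2 to 4.

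The other S100 genes were measured in the same libraries. Of 12 other S100 genes tested in DAC, 11 were higher, 1 was lower and 0 passed in OVXE2 against OVX, with a median log2 difference of 0.21 beside −0.69 and −0.64 for the alarmins. S100a6 and S100a11, widely expressed family members, differed by 0.17 ± 0.19 and 0.14 ± 0.13 (log2, SE; edgeR adjusted p = 0.951 and 0.916). Without OVXE2 library 3 the family split 6 higher and 6 lower with a median of 0.01. Against Sham, with all libraries, it split 3 higher and 9 lower with a median of −0.11, and the median was −0.24 without library 3. In gingiva, 6 of 11 were higher and 5 lower in OVX than in Sham, with a median of 0.20 and 0 passing, and the epithelial members S100a14 and S100a16 each differed by −0.05 ± 0.11. Between tissues in Sham, where 39.7% of all genes rose and 35.4% fell in DAC, 7 of 12 rose and 5 fell, with S100b, a protein of glia and Schwann cells, at 2.05 ± 0.23 and S100a14 at −4.70 ± 0.45.

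Receptors and partners of calprotectin were measured next. Of 5 tested in DAC, 5 were higher in OVXE2 than in OVX and 1 rose, Mcam, a cell adhesion molecule that binds calprotectin, at 205 ± 24.7 CPM in OVXE2 and 141 ± 3.95 CPM in OVX (log2 0.53 ± 0.09; edgeR adjusted p = 0.0117), where 0.676% of genes rose. The list's median of 0.02 equalled that of all genes, and the Mcam call was lost within the 8 libraries with more uncounted-strand reads. Mcam in OVXE2 differed from Sham by 0.19 ± 0.09 (edgeR adjusted p = 0.616). In gingiva, 3 of 5 were higher and 2 lower in OVX than in Sham and 0 passed, with Mcam at 0.25 ± 0.22 and Bsg, a receptor for S100a9, at 0.06 ± 0.06. Of 5 adaptors of Toll-like receptor 4 signalling, 5 were lower in DAC in OVXE2 than in OVX with a median of −0.03 and 0 passing, and Nfkb1 differed by −0.02 ± 0.09. In gingiva 1 of 5 adaptors was higher and 4 lower in OVX than in Sham, with a median of −0.06 and 0 passing.

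Calprotectin delivers arachidonic acid to the phagocyte NADPH oxidase, and 4 of 4 oxidase genes tested in DAC were lower in OVXE2 than in OVX. They had a median log2 difference of −0.62 beside 0.02 over all genes, and 1 of 4 fell, where 1.45% of all genes fell. It was Cybb, the catalytic subunit, at 79.9 ± 16.4 CPM in OVXE2 and 162 ± 36.7 CPM in OVX (log2 −1.02 ± 0.23, edgeR adjusted p = 0.0498). That call was lost when OVX library 1, 2 or 4, or any single OVXE2 library, was left out, and without the 4 neuron-rich libraries. Against Sham, 4 of 4 were lower and 0 passed, with a median of −0.58. In gingiva, 4 of 4 were higher in OVX than in Sham with a median of 0.41 and 0 passing, and 4 of 4 were lower in OVXE2 than in OVX with a median of −0.37. Cyba, the partner subunit of Cybb, had 20.97 ± 3.33 CPM in OVXE2, 28.6 ± 6.78 CPM in OVX and 18.6 ± 2.95 CPM in Sham in gingiva, differing by 0.62 ± 0.17 between OVX and Sham (edgeR adjusted p = 0.376).

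Among regulators of the alarmin genes, Cebpe, a factor of terminal granulocyte differentiation, fell in DAC. It averaged 7.06 ± 1.91 CPM in OVXE2, 21.3 ± 4.45 CPM in OVX and 20.6 ± 6.22 CPM in Sham. It fell by 1.60 ± 0.26 (log2, SE) against OVX (edgeR adjusted p = 0.0071), where 1.45% of all genes fell. Against Sham it fell by 1.54 ± 0.26 (edgeR adjusted p = 0.0159), where 0.661% of all genes fell. The Sham call was lost when Sham library 1 or OVXE2 library 1, 2 or 4 was left out. Both calls were lost without the 4 neuron-rich libraries and within the 8 libraries with more uncounted-strand reads. It was the 1 regulator of 5 tested that passed in either comparison, and in gingiva 0 of 4 regulators passed in OVX against Sham. Cytokines that induce the alarmins did not pass in either tissue: in DAC, 3 of 7 were higher and 4 lower in OVXE2 than in OVX, with a median of −0.16, and 7 of 7 were lower in OVXE2 than in Sham, with a median of −0.53. In gingiva 5 of 6 were higher in OVX than in Sham with a median of 0.39, and Il1b, interleukin-1 beta, had 80.9 ± 49.2 CPM in OVXE2, 63.5 ± 28.4 CPM in OVX and 49.5 ± 16.02 CPM in Sham (OVX against Sham 0.36 ± 0.45; edgeR adjusted p = 0.762).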

How the data were processed

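Poly(A) RNA-seq gene counts from 24 libraries of DAC and gingiva were analysed. The submitters' processing notes name fastp, STAR, DESeq2 and the build GRCm38 (mm10). Tool versions and the gene annotation are not given in the sources used. The deposited values are raw counts per gene ID, made by the authors with no normalization; of their 3 count columns the one holding most gene reads was used, and 3.38 to 9.03% of gene reads lay on the other strand. Lines for reads assigned to no gene were left out of library sizes: unmapped reads were 0.495 to 1.04% of all reads, multimapped reads 6.40 to 13.5%, reads in no feature 19.8 to 32.2% and ambiguous reads 0.872 to 1.19%. GENCODE M21 named 38186 of the 38321 IDs, and 133 of 176 listed symbols were found; the remaining listed symbols were not analysed here. Promoter sequences are RefSeq's for GRCm38.p6, and both genes matched.

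Counts were scaled with TMM, filtered with filterByExpr and fitted with edgeR 4.0.16 (robust glmQLFit, glmQLFTest; R 4.3.3) per tissue (12680 genes in gingiva, 13617 in DAC; 9 residual degrees of freedom) and over both tissues (14209 genes; 18 degrees of freedom). edgeR's common biological coefficient of variation came to 0.164 in gingiva, 0.305 in DAC and 0.248 over both. "Rose" and "fell" mean an adjusted p under 0.05. DESeq2 1.42.0 and limma 3.58.1 (voom) were alternatives, with other scaling, filtering, strand, subset and leave-one-out settings. The fit was tested on simulated counts. Replicates differed by more than sampling noise in every group (chi-square per degree of freedom 16.7 to 359). Log2 ratios of S100a8 to S100a9 counts were compared by exact permutation of 4 against 4 libraries (70 relabellings; scipy 1.17.1). Log2 CPM for likeness and correlation used a prior count of 2.

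The genes and lists were chosen with earlier results of these data known. From each list, up to 4 genes past the threshold were named, smallest p first, or up to 2 of the highest mean level where none passed; the 6 genes of smallest SD per tissue, leaving out predicted genes, were named for likeness. One named gene is not reported here.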

Additional observations from a re-analysis of the deposited data

How the results depend on the processing

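Over 35 results on the alarmin genes and 602 alternatives, 549 kept their direction and their side of the threshold, 1 lost its call, 14 gained one and 38 changed sign. Counting error was small beside the spread between libraries, since every library had at least 12332 counts of either gene. The causes of these changes were not tested.

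With DESeq2, calls were gained in gingiva for OVX against Sham (0.72 for S100a8, 0.70 for S100a9) and OVXE2 against Sham (0.68 and 0.75), and for the DAC minus gingiva effect of OVXE2 against Sham (−1.43 and −1.44). Genes passing the test ranged, over all settings, from 37 to 598 (290 as reported) for DAC OVXE2 against OVX, from 10 to 340 (143) for DAC OVXE2 against Sham, from 2 to 114 (27) and 0 to 70 (9) for the tissue differences of these effects, and from 0 to 44, 91, 8 and 10 for the comparisons that passed 0.

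The sign of S100a8 in gingiva OVXE2 against OVX changed in the higher other-strand set (0.016). In DAC OVX against Sham it changed without the neuron-rich libraries (0.12 for S100a8, 0.093 for S100a9), without the nasal-rich and shallowest libraries (0.12 and 0.094) and in the higher other-strand set (0.075 and 0.038). Without the neuron-rich libraries, DAC against gingiva gave a call for S100a8 in OVX (0.44; edgeR adjusted p = 0.0222) and changed sign in OVXE2 (0.038 for S100a8, 0.43 for S100a9). S100a9 in OVXE2 between tissues also changed sign with library size only (0.10), counts of both strands (0.012) and the higher other-strand set (0.014). The log2 ratio of S100a8 to S100a9 changed sign in that set for OVXE2 against Sham in gingiva (0.027) and DAC (0.012). The lower other-strand set, with 1 or 2 libraries a group, was not fitted.

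Leaving out 1 library at a time gave, for gingiva OVXE2 against OVX, −0.13 to 0.036 for S100a8 and −0.061 to 0.20 for S100a9. For DAC OVX against Sham it gave −0.19 to 0.041 and −0.17 to 0.057, for DAC OVXE2 against OVX −1.04 to −0.53 and −1.03 to −0.46, and for DAC OVXE2 against Sham −1.12 to −0.61 and −1.10 to −0.53. Between tissues it gave 0.59 to 0.83 for S100a9 in OVX, and in OVXE2 −0.64 to −0.18 for S100a8 and −0.36 to 0.16 for S100a9. The DAC minus gingiva effect of OVXE2 against Sham ran from −1.73 to −1.28 and from −1.78 to −1.27. The log2 ratio ran from −0.033 to 0.11 for gingiva OVX against Sham, and in DAC from −0.033 to 0.063 for OVX against Sham, −0.096 to 0.033 for OVXE2 against OVX and −0.092 to 0.037 for OVXE2 against Sham.

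Replicate numbers were not taken to pair the libraries. Deviations from group means of same-numbered libraries of different groups correlated at −0.53 to 0.28 in gingiva and −0.35 to 0.35 in DAC. Same-numbered DAC and gingiva libraries of a group correlated at −0.32 to 0.24. With 12 such pairs and values on both sides of 0, these correlations cannot settle whether a number marks the same mouse in both tissues. With the replicate number as a block, S100a8 was at 0.73 in gingiva OVX against Sham (edgeR adjusted p = 0.202) and −0.73 in DAC OVXE2 against OVX (adjusted p = 0.256), and no call of S100a8 or S100a9 changed. The block moved the genes passing to 2 in gingiva OVXE2 against OVX, 250 and 101 in the DAC OVXE2 comparisons, and 9 and 1 in their tissue differences.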
